A study of Mus musculus with 24 samples.

Results

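Integrins, laminins, collagens and fibronectin make up the cell-matrix adhesion genes described here, taken as every protein-coding mouse gene whose symbol begins as an integrin alpha chain, integrin beta chain, laminin chain or collagen chain symbol, together with Fn1. The rule found 81 genes among the 45792 in the count table: 17 integrin alpha chains, 8 integrin beta chains, 11 laminin chains, 44 collagen chains and Fn1. Of these, 76 had enough reads to be tested. Itgb6, Itgam, Itgax, Col8a2 and Col6a6 did not, and their means over all libraries lay between 0.0231 and 0.147 CPM, the reads of a gene scaled to the library total.

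The RNA came from mouse primary cortical neurons, taken from E16.5 embryos and grown for 12 days. WT cultures, and cultures whose label reads H2BE-KO/mCherry-KI (KO below), were left untreated as controls or were given brain-derived neurotrophic factor (BDNF) for 30 min or 24 h before collection. The 6 groups hold 4 libraries each, called biological replicates by the submitters, and per-library values below run from replicate 1 to replicate 4. The labels give neither sex nor the dose of BDNF. All values are CPM scaled by trimmed-mean (TMM) factors, and fold changes are on the log2 scale with their standard error.

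Integrins are receptors built from an alpha and a beta chain that tie the extracellular matrix to the actin cytoskeleton. The alpha chain sets much of the ligand choice: some chains bind collagen, some laminin, and some the RGD motif found in fibronectin and vitronectin. Laminins, each an alpha, beta and gamma chain, and collagen IV form the sheets of basement membranes, whereas fibrillar collagens form the fibres of connective tissue. In the developing cortex these sheets lie under the pia and around vessels, and neuronal integrins are known for roles in migration, neurite growth and synapses. BDNF acts on neurons through the receptor TrkB, and H2BE is a variant of histone H2B.

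Promoter windows from RefSeq (GRCm38.p6, 250 bases before to 50 bases after the start of transcription) matched 58 of the 81 genes. The 5 windows below are those of Itga2 and Itga5, integrins with large rises at 24 h, of Col24a1 and Col15a1, the collagens with the largest falls, and of Col10a1, the collagen with the largest genotype difference. Capitals mark the only match to 4 searched motifs in these 5 windows, a cyclic AMP response element (TGACGTCA) that begins 7 bases before the start of Col24a1.
Itga2 (chr13:114932051-114932350, minus strand): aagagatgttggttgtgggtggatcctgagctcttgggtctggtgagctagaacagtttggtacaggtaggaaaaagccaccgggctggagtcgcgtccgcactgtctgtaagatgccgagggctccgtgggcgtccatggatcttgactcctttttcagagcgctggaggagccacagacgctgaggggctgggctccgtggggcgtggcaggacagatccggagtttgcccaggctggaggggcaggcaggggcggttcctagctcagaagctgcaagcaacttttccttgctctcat
Itga5 (chr15:103366742-103367041, minus strand): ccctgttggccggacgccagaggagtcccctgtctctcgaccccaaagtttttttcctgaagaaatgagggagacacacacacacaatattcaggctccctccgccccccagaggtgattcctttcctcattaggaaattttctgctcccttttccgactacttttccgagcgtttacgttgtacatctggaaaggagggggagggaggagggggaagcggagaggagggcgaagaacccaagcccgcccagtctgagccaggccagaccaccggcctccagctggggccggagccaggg
Col24a1 (chr3:145292222-145292521, plus strand): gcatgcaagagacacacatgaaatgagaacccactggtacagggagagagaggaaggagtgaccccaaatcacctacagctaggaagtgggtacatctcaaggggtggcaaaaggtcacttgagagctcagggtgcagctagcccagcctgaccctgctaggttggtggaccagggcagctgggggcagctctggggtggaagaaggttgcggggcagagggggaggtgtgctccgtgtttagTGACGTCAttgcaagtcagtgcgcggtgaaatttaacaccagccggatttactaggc
Col15a1 (chr4:47207762-47208061, plus strand): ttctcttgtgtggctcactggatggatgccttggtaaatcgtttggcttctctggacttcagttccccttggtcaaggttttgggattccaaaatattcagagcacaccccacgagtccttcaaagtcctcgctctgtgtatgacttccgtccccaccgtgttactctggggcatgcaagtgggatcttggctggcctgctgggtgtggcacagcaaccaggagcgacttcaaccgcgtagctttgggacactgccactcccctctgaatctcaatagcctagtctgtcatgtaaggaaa
Col10a1 (chr10:34389731-34390030, plus strand): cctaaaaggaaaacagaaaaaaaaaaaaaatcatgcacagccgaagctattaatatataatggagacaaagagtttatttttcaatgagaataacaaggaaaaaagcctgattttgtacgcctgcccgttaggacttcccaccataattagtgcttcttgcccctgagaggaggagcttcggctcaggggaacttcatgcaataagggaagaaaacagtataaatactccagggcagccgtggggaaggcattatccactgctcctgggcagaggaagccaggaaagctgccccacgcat

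The motifs were searched on both strands of all windows. TGANTCA, the AP-1 element, was in 4 of the 64 windows of members (6.25%) and in 7.81% of all 32851 windows. TGACGTCA was in 1 member window (1.56%) and in 1.79% of all. GCGNGGGCG, the Egr element, was in 5 (7.81%) against 5.55%, and the CArG box in 3 (4.69%) against 1.63%. The letters of TGACGTCA hold no TGANTCA. A match is a description of letters only, and the 4 genes whose windows held an AP-1 element were Col6a1, Itga3, Itga9 and Itgax.

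Libraries held 19780486 to 62135270 counted reads. The targeted gene, Hist2h2be, read 3.15 to 5.83 CPM in the 12 WT libraries and 50 to 63.1 CPM in 11 of the 12 KO libraries, higher under the knockout label rather than lower, and 21.2 CPM in KO 24 h replicate 4. Counts per gene do not show which part of the transcript the reads came from, so this gene separates the labels but does not check the deletion, and KO here means the label. Mitochondrial genes took 4.18 to 6.4% of counts in WT, 4.2 to 9.34% in KO cultures 1 to 3 and 10.9 to 21.7% in KO culture 4. Summed neuronal markers (11 genes) lay between 6480 and 8220 CPM in every library, but single markers differed. In controls 7 of the 11 were called between genotypes: Gad1 and Gad2, of inhibitory neurons, were higher in KO, and Neurod6, Rbfox3, Slc17a7, Tbr1 and Tubb3 were lower. Mean Gad1 was at 526 CPM in WT and 1070 CPM in KO controls, and Tbr1, of deep-layer excitatory neurons, at 123 and 33.3 CPM. At 24 h in WT, 1 of the 11 rose and 2 fell. The part of these neuron types in the members' differences was not tested. Library names fall into set 1 (WT cultures 1 and 2, KO culture 1) and set 2 (the rest), which the labels do not explain. Fewer cells of a type and less RNA per cell cannot be told apart in such bulk libraries.

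Levels were compared between genes per kilobase of exon. Itgb1, the common partner of most alpha chains, was at 29.9 CPM per kb over all 24 libraries, followed by the laminin-binding Itga3 at 8.29. The basement membrane collagens Col4a2 and Col4a1 were at 5.18 and 3.35 CPM per kb. Col26a1 was at 4.02 CPM per kb and Itga6, a laminin-binding chain, at 3.60. Lamc1 (2.84) and Lamb1 (2.35) led the laminins, and Fn1 was at 1.56 CPM per kb. The skin and leukocyte chains were near the floor: Itgb4, which pairs with Itga6 in hemidesmosomes, was at 0.0304 CPM per kb and Itgal at 0.0227.

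In WT neurons, no member was called after 30 min of BDNF. By edgeR's quasi-likelihood test 0 of the 76 passed (adjusted p under 0.05 over 16777 genes), 0 had an unadjusted p under 0.05, and DESeq2 also called 0, where 0.37% of all genes were called. In KO neurons 0 members passed at 30 min by either tool, 9 had an unadjusted p under 0.05, and 0.125% of all genes were called. Outside the families Ccn1, a matricellular integrin ligand, rose by 5.25 ± 0.48 in WT (adjusted p = 1.49e-07) and by 3.26 ± 0.44 in KO (adjusted p = 0.000273).

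After 24 h of BDNF, 15 members rose and 5 fell in WT neurons. That is 26.3% of those tested, where 18.7% of all genes were called (9.55% higher and 9.13% lower). Laminins and integrin receptor chains supplied 13 of the 15 rises, and 3 of the 5 falls were collagens. By family, 4 of 15 tested alpha chains rose, 3 of 7 beta chains rose and 1 fell, 6 of 11 laminin chains rose and 1 fell, and 2 of 42 collagens rose and 3 fell. The median change was 0.78 over the laminins, 0.67 over the beta chains, 0.02 over the alpha chains and -0.12 over the collagens, against -0.01 over all genes. In KO neurons 10 members rose and 2 fell at 24 h, 15.8% of those tested, where 5.61% of all genes were called (2.91% higher and 2.7% lower). Itga2, Itga6, Itgav, Itgb3, Lama1, Lamb3 and Lamc1 rose in both genotypes and Lama2 fell in both.

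Among the collagen receptors, Itga2 came up from the floor. This chain pairs with Itgb1 to bind collagen. It read 0.12, 0.044, 0.174 and 0.047 CPM in the WT controls and 1.86, 3.70, 3.33 and 1.25 CPM after 24 h, so every treated library was above every control. The 4 treated libraries held 405 reads and the 4 controls 14, a ratio of 27.7 in CPM with a 95% interval of 16.3 to 51.2 that covers counting error only. The fitted change was 4.73 ± 0.67 (adjusted p = 2.65e-05). In KO neurons Itga2 read 0.142, 0.127, 0.34 and 0.193 CPM in the controls and 1.70, 1.55, 1.21 and 3.04 CPM at 24 h, again without overlap (3.27 ± 0.61, adjusted p = 0.00269). The other collagen-binding chains, Itga1, Itga10 and Itga11, passed in neither genotype.

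Itga6 forms a laminin receptor with Itgb1, and it had the largest rise among the abundant chains. It read 14.4, 12.9, 12.9 and 16.7 CPM in the WT controls and 96.8, 114, 127 and 57.8 CPM at 24 h, with no overlap (2.79 ± 0.32, adjusted p = 2.81e-06). In KO it read 9.22, 8.03, 8.56 and 6.45 CPM in the controls and 30.2, 34.2, 35.0 and 82.5 CPM at 24 h (2.49 ± 0.32, adjusted p = 0.000131), and replicate 4 stood far above the other KO libraries. Per kilobase, Itga6 made up 13.7% of the summed alpha-chain level in WT controls and 44.3% at 24 h, against 8.07% and 21.5% in KO. Itga3, the other abundant laminin-binding chain, read 44.4, 34.1, 34.8 and 28.1 CPM in KO controls and 107, 92.8, 75.5 and 45.4 CPM at 24 h, where it rose by 1.18 ± 0.24 (adjusted p = 0.00469). In WT, Itga3 read 35.9, 36.3, 42.0 and 36.2 CPM in controls and 37.9, 58.5, 71.8 and 38.3 CPM at 24 h, a difference that did not pass. The WT change of Itga3 passed with KO culture 4 and KO 30 min replicate 3 left out (0.46, adjusted p = 0.0431).

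Of the 4 RGD-binding chains tested, Itga5 and Itgav rose in WT and Itgav in KO. Itga8 (-0.45 and -0.57 in WT and KO) and Itga2b (-1.13 and -0.02) passed in neither. Itga5, the fibronectin receptor chain, read 0.451, 0.418, 1.04 and 1.22 CPM in WT controls and 4.33, 3.62, 4.06 and 1.54 CPM at 24 h, without overlap (2.10 ± 0.49, adjusted p = 0.00365). In KO it read 2.01, 2.92, 2.65 and 0.481 CPM in controls and 6.64, 6.36, 6.93 and 3.66 CPM at 24 h. The KO groups did not overlap, but the change of 1.52 ± 0.46 missed the threshold (adjusted p = 0.0552). Itga5 passed in KO with DESeq2 (1.54, adjusted p = 0.0125) and with the culture as a block (1.54, adjusted p = 0.025). Itgav, which joins several beta chains to bind vitronectin, rose by 0.67 ± 0.23 in WT (adjusted p = 0.0441) and by 0.82 ± 0.23 in KO (adjusted p = 0.0368). The WT groups of Itgav overlapped, at 9.14 to 12.5 against 12.3 to 18.1 CPM, and the call was lost in 6 of 8 fits that left out a library in each genotype, with adjusted p up to 0.112 and 0.11.

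**Figure D1:**
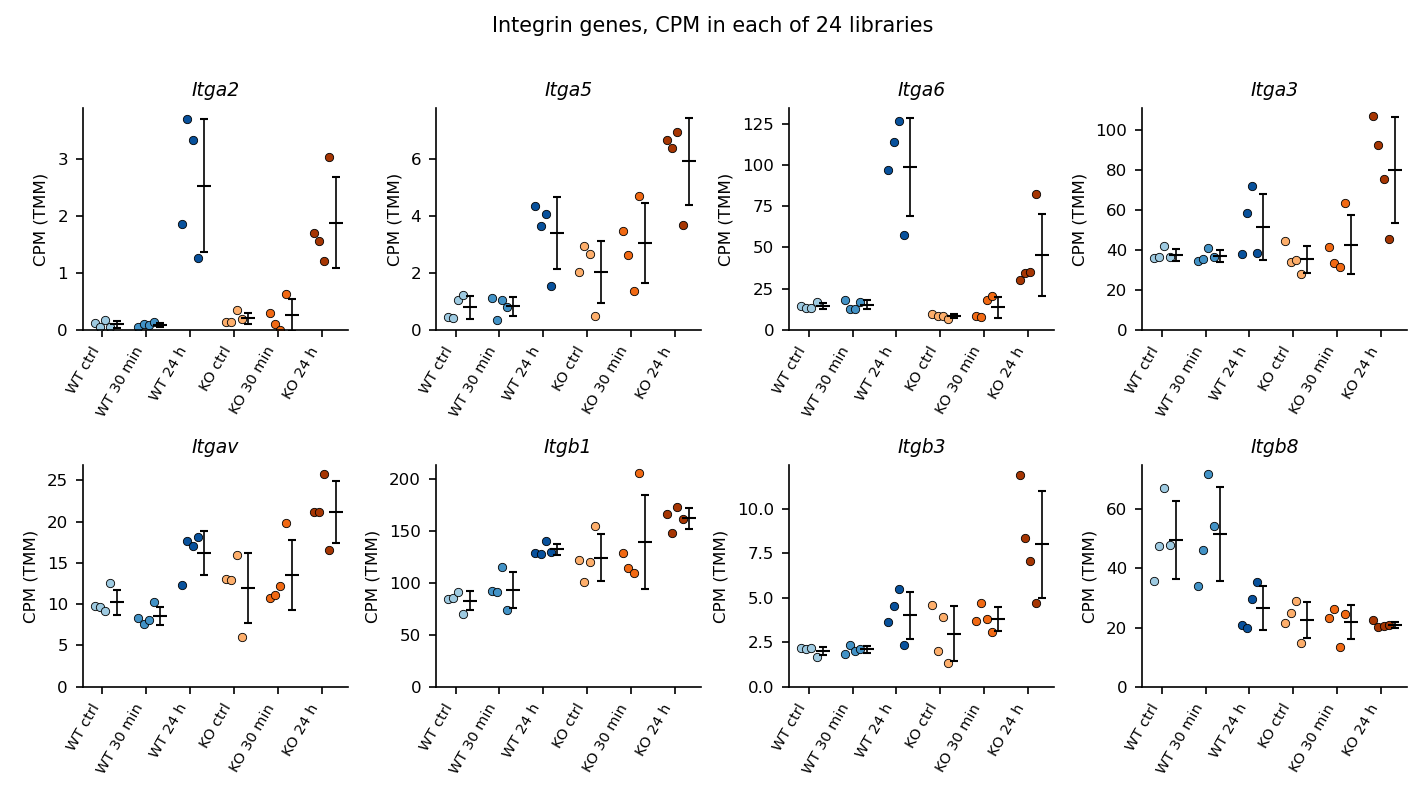
Integrin genes in each of the 24 libraries, as TMM-scaled CPM on linear axes that start at 0. Points are libraries in replicate order, and the bar beside them is the mean with its SD (n = 4). Itga2, Itga6 and Itga5 sit above their controls in every WT 24 h library, while Itgb8 sits below.

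Of the beta chains, Itgb1 rose from 82.6 ± 9.03 to 132 ± 5.59 CPM in WT (SD, n = 4; 0.67 ± 0.16, adjusted p = 0.00494), with all treated libraries (128 to 140 CPM) above all controls (69.8 to 91.0 CPM). In KO it was at 124 ± 22.4 CPM in controls and 162 ± 10.3 CPM at 24 h, a difference of 0.38 that did not pass (adjusted p = 0.191). Itgb1 was higher at 24 h in all 4 KO cultures, and it passed with the culture as a block (0.41, adjusted p = 0.0134) and with KO culture 4 and KO 30 min replicate 3 left out (0.52, adjusted p = 0.0114). Itgb3, the partner of Itgav in the vitronectin receptor, rose in both genotypes, from 2.03 ± 0.225 to 4.00 ± 1.34 CPM in WT (0.98 ± 0.32, adjusted p = 0.0337) and from 2.97 ± 1.54 to 7.99 ± 3.01 CPM in KO (1.42 ± 0.32, adjusted p = 0.00894). The WT call of Itgb3 was lost in 7 of 8 fits without a library (adjusted p up to 0.141), and the KO call in 1, without KO 24 h replicate 1 (1.16, adjusted p = 0.0556).

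Itgb2, the leukocyte beta chain, read 0.12, 0.044, 0.29 and 0.0941 CPM in WT controls and 1.41, 1.51, 1.15 and 0.681 CPM at 24 h. The 189 reads after treatment against 20 before give a ratio of 9.06 (95% interval 5.71 to 15.2, counting error only), and the fitted rise was 3.12 ± 0.85 (adjusted p = 0.0108). Its usual partners stayed low, with Itgal at a mean of 0.149 CPM and Itgam at 0.101 CPM over all libraries. Summed microglia and macrophage markers (10 genes) moved with it, from 11.6 to 16.9 CPM in WT controls to 20.9 to 30.3 CPM at 24 h. Of 8 markers tested 1 rose, Cd68, and in WT 24 h libraries Tmem119 was at 0 and Ptprc at a mean of 0.101 CPM. The part of these cells in the Itgb2 result was not tested.

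Itgb8, which pairs with Itgav to activate TGF-beta and is high in glia, fell in WT from 35.6, 47.6, 67.3 and 47.8 CPM to 21, 19.7, 29.8 and 35.5 CPM (-0.90 ± 0.24, adjusted p = 0.0106). The lowest control and the highest treated library nearly met. Without WT control replicate 3 the call was lost (-0.72, adjusted p = 0.0549). The summed astrocyte markers were at 462 to 632 CPM in WT controls and 482 to 568 CPM at 24 h, and 0 of 10 were called. Most of that sum was Slc1a2, at means of 470 and 478 CPM. Mean Slc1a3 (35.1 and 25.7 CPM), Aldoc (15.6 and 9.08 CPM), Fgfr3, Aqp4, Gfap and S100b were lower at 24 h. Mean Sox9 (2.48 and 3.48 CPM), Gja1 and Aldh1l1 were higher. Their part in the Itgb8 fall was not tested. In KO, Itgb8 was already at 14.9 to 29.0 CPM in controls and stayed at 20.2 to 22.5 CPM.

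Of the 4 families, laminin had the largest share of rises in WT. Summed progenitor and dividing-cell markers (7 genes) were higher beside them, from 45.9 to 67.7 CPM in WT controls to 88.3 to 139 CPM at 24 h, and from 41.6 to 61.9 CPM to 119 to 131 CPM in KO. Of the 7 only Vim, an intermediate filament gene also found in glia and fibroblasts, rose, in both genotypes, and Mki67 was at a mean of 0.751 CPM in WT controls and 1.2 CPM at 24 h. Their part in the rises was not tested. Lama3 and Lamb3 encode chains of a laminin best known from epithelial basement membranes. Lamb3 read 0.902, 0.66, 0.90 and 0.80 CPM in WT controls and 5.42, 6.25, 4.98 and 4.11 CPM at 24 h (2.67 ± 0.34, adjusted p = 7.66e-06). In KO it read 1.27, 0.857, 1.63 and 1.06 CPM in controls and 2.64, 2.38, 1.67 and 5.18 CPM at 24 h (1.31 ± 0.33, adjusted p = 0.0184). Treated libraries were above controls in both, by little for KO replicate 3. The KO call was lost in 3 of 8 fits, among them the one without KO 24 h replicate 4 (0.90, adjusted p = 0.0812). Lama3 rose in WT from 1.76 ± 0.189 to 3.55 ± 1.35 CPM (1.0 ± 0.31, adjusted p = 0.0272), a call lost in 5 of 8 such fits (adjusted p up to 0.122), and in KO the difference of 0.94 had an adjusted p of 0.0753. Lama3 passed in KO with the culture as a block (0.95, adjusted p = 0.0219), with DESeq2 (0.95, adjusted p = 0.029) and with KO culture 4 and KO 30 min replicate 3 left out (1.03, adjusted p = 0.0178).

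Lama1, the alpha chain of early embryonic basement membranes, read 2.77, 4.02, 3.22 and 5.25 CPM in WT controls and 9.96, 15.2, 15.9 and 10.7 CPM at 24 h (1.76 ± 0.25, adjusted p = 2.67e-05). In KO it rose from 3.87 ± 0.966 to 7.58 ± 2.81 CPM (0.96 ± 0.25, adjusted p = 0.0216), but not without KO culture 4 and KO 30 min replicate 3 (0.55, adjusted p = 0.147), nor in 4 of 8 fits without a library. The common chains moved less: Lamc1 rose by 0.78 ± 0.13 in WT (adjusted p = 0.00018) and by 0.50 ± 0.13 in KO (adjusted p = 0.0238; lost in 6 of 8 fits without a library), and Lamb1 rose by 0.47 ± 0.16 in WT (adjusted p = 0.0487), lost in 7 of 8 fits without a library. Lama1 took 32.9% of the summed laminin alpha-chain level per kb in WT controls and 59.9% at 24 h.

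Against these rises, Lama2, the alpha chain known from muscle and from pial and vascular basement membranes, fell in both genotypes. It read 5.23, 5.03, 5.72 and 3.88 CPM in WT controls and 2.47, 2.30, 2.30 and 1.93 CPM at 24 h (-1.14 ± 0.25, adjusted p = 0.00213), with no overlap. In KO it went from 6.19 ± 1.22 to 3.48 ± 1.05 CPM (-0.83 ± 0.24, adjusted p = 0.0456), the groups overlapped, and the call was lost in 6 of 8 fits without a library. Lama5, another vascular chain, fell in KO from 4.06, 4.92, 4.14 and 3.47 CPM to 1.76, 2.09, 1.55 and 1.06 CPM (-1.36 ± 0.38, adjusted p = 0.0378), with no overlap, though the call was lost in 8 of 8 such fits (adjusted p up to 0.0989).

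**Figure D2:**
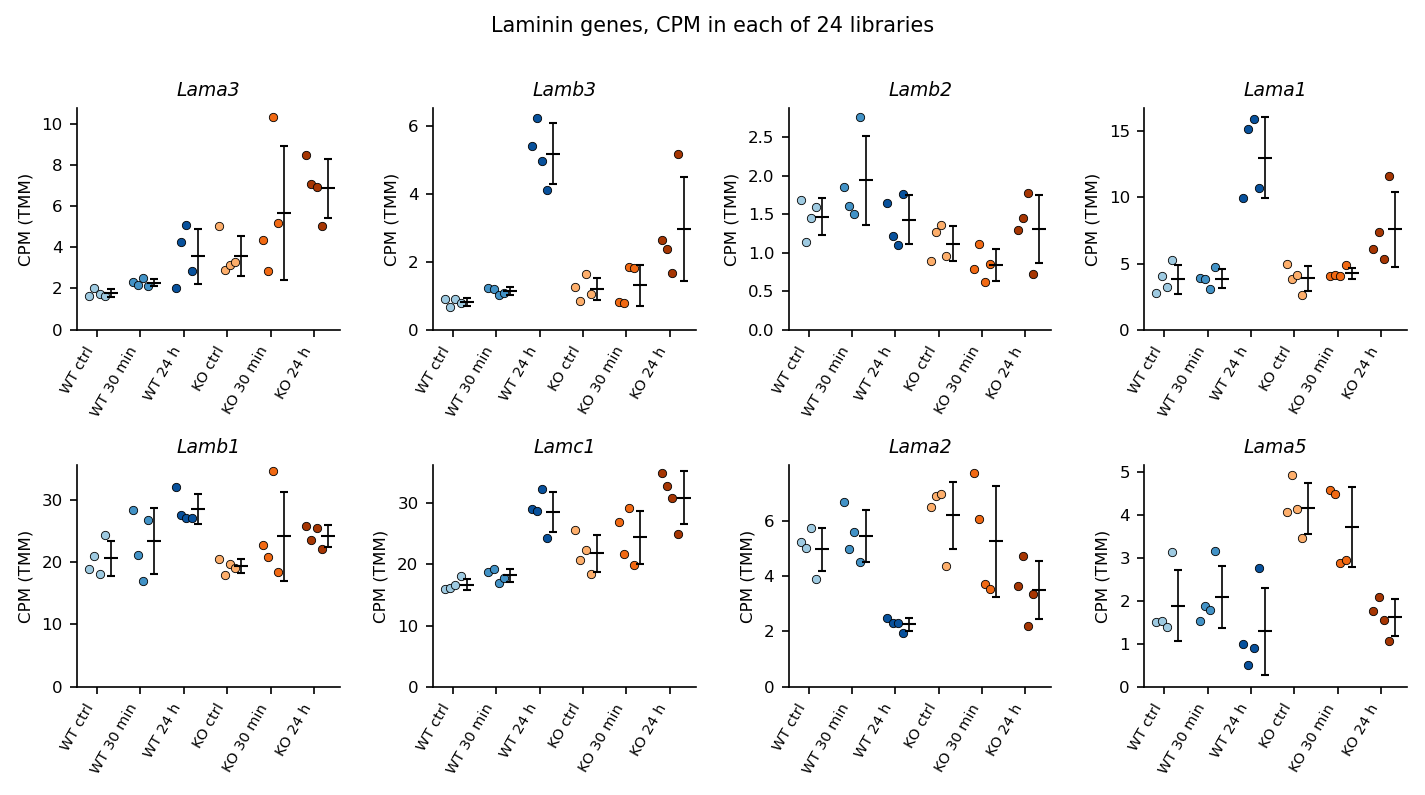
Laminin chain genes in each of the 24 libraries, as TMM-scaled CPM on linear axes that start at 0. Points are libraries in replicate order, and the bar beside them is the mean with its SD (n = 4). Lamb3 and Lama1 are higher and Lama2 is lower in every WT 24 h library than in every WT control.

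**Figure D3:**
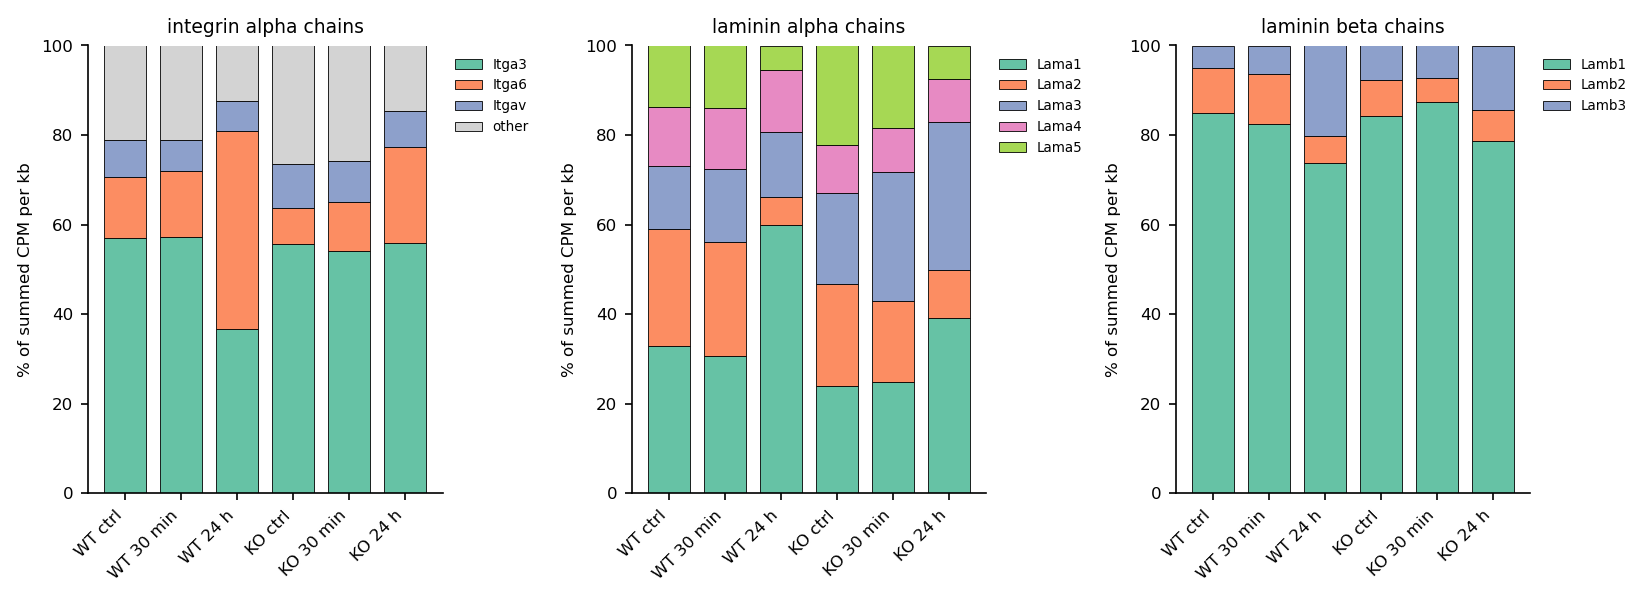
Share of each chain in the summed CPM per kb of its kind, as the mean of 4 libraries per group in percent. Itga6 goes from 13.7% to 44.3% of the alpha chains between WT controls and WT 24 h, Lama1 from 32.9% to 59.9% and Lamb3 from 5.12% to 20.2%.

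Few collagens were called after BDNF. Of 42 tested at 24 h, 37 did not pass in WT, where 18.7% of all genes were called. In KO 41 did not, where 5.61% of all genes were called. Some had few reads, such as Col13a1 at a mean of 0.242 CPM over all libraries, so not passing does not show a small change. The 2 that rose in WT carry interrupted triple helices and bind to other fibrils: Col9a1, a cartilage collagen, rose from 1.06 ± 0.763 to 4.70 ± 2.30 CPM (2.16 ± 0.51, adjusted p = 0.00431), and Col22a1 from 3.59 ± 0.74 to 7.25 ± 2.87 CPM (1.01 ± 0.33, adjusted p = 0.0359), with Col22a1 lost in 5 of 8 fits without a library (adjusted p up to 0.174). In KO, Col9a1 was at 8.23 ± 0.814 CPM in controls and 10.5 ± 1.55 CPM at 24 h, which did not pass.

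Col24a1, a minor fibrillar collagen, had the largest fall. It read 2.89, 3.17, 1.22 and 1.18 CPM in WT controls and 0.212, 0.357, 0.35 and 0.22 CPM at 24 h (-2.88 ± 0.57, adjusted p = 0.000936), with every treated library below every control. In KO it read 0.566, 0.444, 0.34 and 1.16 CPM in controls and 0.459, 0.564, 0.402 and 0.821 CPM at 24 h, a change of -0.10 that did not pass. Col15a1, a basement membrane zone collagen, fell in WT from 2.16, 1.54, 1.51 and 2.16 CPM to 0.691, 0.408, 0.401 and 0.176 CPM (-2.14 ± 0.57, adjusted p = 0.0101), and Col6a3, of microfibrillar collagen VI, from 2.61 ± 0.209 to 0.989 ± 0.433 CPM (-1.39 ± 0.38, adjusted p = 0.0108).

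Fibroblast and meningeal markers were lower beside these falls. Their sum over 10 genes, mostly Dcn, was 25 to 46.7 CPM in WT controls and 12.1 to 19.5 CPM in WT at 24 h, and 0 of 6 tested were called. Slc22a6 was at 0 in both groups. Their part in the falls of Col24a1, Col15a1, Col6a3 and Lama2 was not tested. Endothelial markers (9 genes) summed to 1.14 to 4.02 CPM over all 24 libraries, with 4 to 6 of the 9 under 0.1 CPM in each group. Fn1 was called at 24 h in neither genotype. Col10a1 passed in KO and not in WT, where it was still higher at 24 h in all 4 cultures. The WT change passed with KO culture 4 and KO 30 min replicate 3 left out (0.95, adjusted p = 0.00815). In KO, Col10a1 rose from 5.78, 5.11, 6.52 and 2.55 CPM to 18.4, 20, 21.1 and 5.25 CPM (1.69 ± 0.37, adjusted p = 0.00829). Replicate 4 lay low in both KO groups, so that its treated value fell within the control range. The KO call was lost when only the compared groups were fitted.

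**Figure D4:**
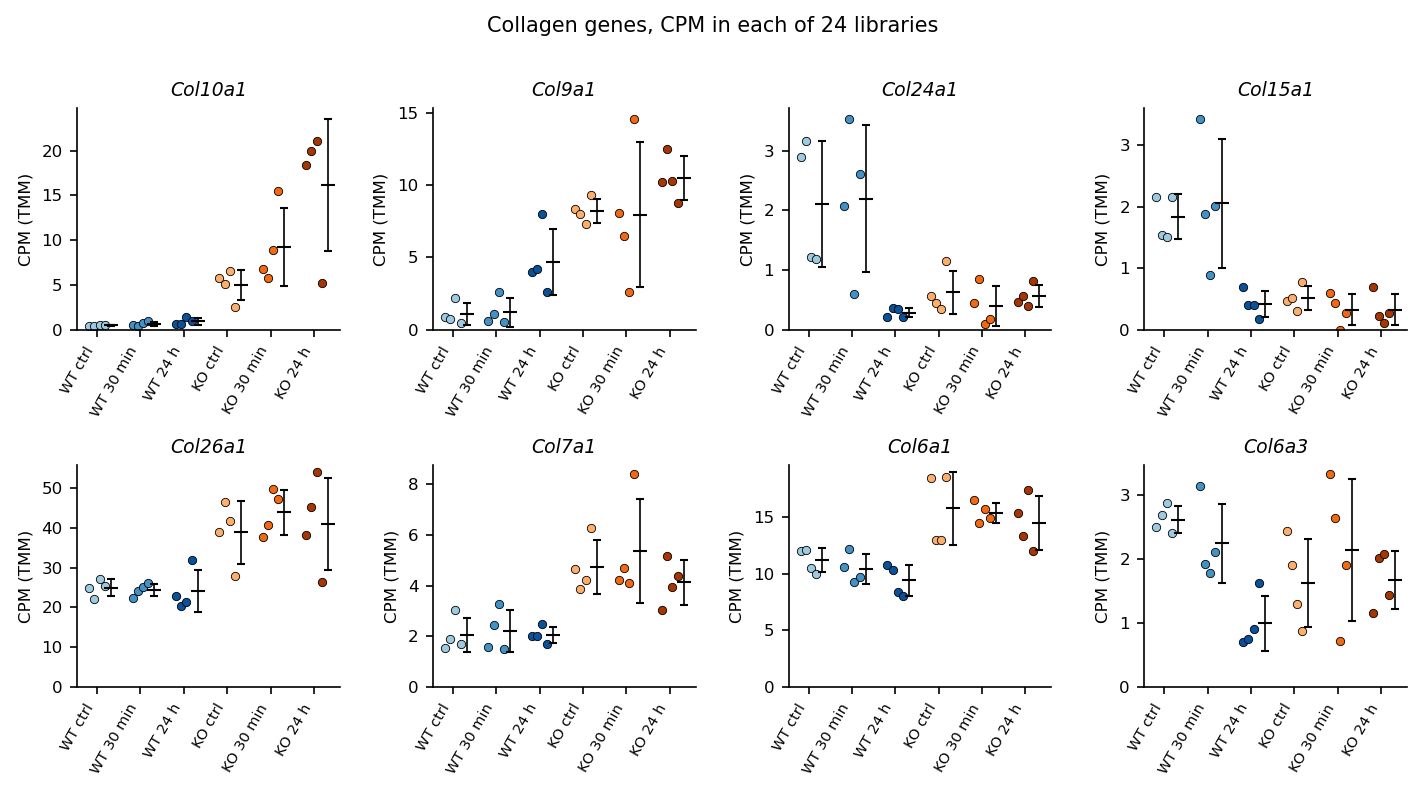
Collagen genes in each of the 24 libraries, as TMM-scaled CPM on linear axes that start at 0. Points are libraries in replicate order, and the bar beside them is the mean with its SD (n = 4). Col10a1 is higher in every KO library than in any WT library of the same condition, and Col24a1 and Col15a1 are lower in every WT 24 h library than in every WT control.

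Whether the 24 h response differed between genotypes was tested as an interaction, and 0 of 76 members passed (edgeR), where 0.0358% of all genes did (0.0119% lower in KO). Of the members, 10 had an unadjusted p under 0.05. Lamb3 (-1.36 ± 0.46, adjusted p = 0.55) passed only when KO culture 4 and KO 30 min replicate 3 were left out (-1.80, adjusted p = 0.0131), and Col9a1 (-1.81 ± 0.69, adjusted p = 0.686) only with the culture as a block (-1.88, adjusted p = 0.0258). Col25a1, called in neither genotype by the main fit, also passed as an interaction with that block (-1.06, adjusted p = 0.0206). For Col24a1 the difference was 2.78 ± 0.79 (adjusted p = 0.345). By the main fit, members that passed in WT alone are therefore not shown to respond differently in KO. At 30 min 0 members passed, 4 had an unadjusted p under 0.05 and 0.0477% of all genes were called.

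Between untreated genotypes, 12 members were higher and 4 lower in KO than in WT. That is 21.1% of those tested, where 21.4% of all genes were called, so the share of members called was close to that of all genes. At 30 min of BDNF 16 were higher and 9 lower (32.9%, where 28.4% of all genes were called), and at 24 h 9 were higher and 2 lower (14.5%, where 13.3% were called, 7.09% higher and 6.16% lower). The members' median difference was 0.23, 0.15 and 0.12 in these comparisons, against 0.03, 0.02 and 0 over all genes. Col10a1, Col26a1, Col6a1, Col7a1 and Lama3 were higher in KO under all 3 conditions, and 0 members were lower under all 3. The share of all genes called in 1 direction under all 3 was not counted. The 24 h calls of Lama3 (0.95 ± 0.30, adjusted p = 0.041, overlapping groups) and Col7a1 were lost in 6 and 3 of 8 fits without a library, with adjusted p up to 0.152 and 0.0761.

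Of the 42 collagens tested, 6 were higher and 3 lower in KO controls, where 21.4% of all genes were called, a share like that of all genes. Col10a1, a collagen known from growth plate cartilage, differed most: WT controls read 0.421, 0.396, 0.522 and 0.565 CPM and KO controls 5.78, 5.11, 6.52 and 2.55 CPM (3.39 ± 0.43, adjusted p = 1.2e-05). At 30 min the values were 0.531, 0.441, 0.74 and 0.925 CPM in WT and 6.79, 5.82, 8.86 and 15.5 CPM in KO (3.80 ± 0.42, adjusted p = 1.73e-06). At 24 h they were 0.637, 0.663, 1.38 and 1.01 CPM in WT and 18.4, 20, 21.1 and 5.25 CPM in KO (4.13 ± 0.42, adjusted p = 3.24e-06). No KO library overlapped WT under any condition. Col9a1 read 0.902, 0.703, 2.18 and 0.47 CPM in WT controls and 8.33, 7.98, 7.34 and 9.29 CPM in KO controls (2.97 ± 0.52, adjusted p = 0.000272). Col11a1, a fibrillar collagen, was higher at 1.5 ± 0.238 CPM in KO against 0.605 ± 0.205 CPM in WT (1.31 ± 0.29, adjusted p = 0.00237).

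Col26a1, the most abundant of these collagens per kilobase, was at 24.9 ± 2.14 CPM in WT and 38.9 ± 7.89 CPM in KO controls (0.65 ± 0.18, adjusted p = 0.0117). Col7a1, of anchoring fibrils, was at 2.03 ± 0.674 and 4.74 ± 1.06 CPM (1.22 ± 0.29, adjusted p = 0.00351), and Col6a1 at 11.2 ± 1.09 and 15.8 ± 3.23 CPM (0.50 ± 0.15, adjusted p = 0.0192). Col6a1 lost its control call in 4 of 8 fits without a library (adjusted p up to 0.0985) and Col26a1 in 1, without KO control replicate 2 (0.52, adjusted p = 0.0559). Lower in KO were Col15a1 (-1.86 ± 0.57, adjusted p = 0.0226), Col24a1 (-1.79 ± 0.54, adjusted p = 0.0208) and the transmembrane Col23a1 (-0.95 ± 0.28, adjusted p = 0.0173). These control calls were lost in 4, 4 and 2 of 8 fits without a library. All 3 were lower again at 30 min, and none of them passed at 24 h.

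Laminin and integrin chains followed. In controls Lama3 was higher in KO by 1.02 ± 0.32 (adjusted p = 0.0237), Lama5 by 1.14 ± 0.38 (adjusted p = 0.0362) and Lamc1 by 0.39 ± 0.13 (adjusted p = 0.0358). Lama3, Lama5 and Lamc1 lost these calls in 4, 6 and 6 of 8 fits without a library. Itgb1 was higher by 0.59 ± 0.16 (adjusted p = 0.0115), a call lost without KO control replicate 4 (0.46, adjusted p = 0.0506). Itga5 was higher by 1.38 ± 0.49 (adjusted p = 0.0451) with overlapping groups and the call lost in 6 of 8 such fits and with the replicate number as a block. Itgb8 was lower, at 14.9 to 29.0 CPM in KO against 35.6 to 67.3 CPM in WT controls (-1.13 ± 0.24, adjusted p = 0.00192), and again at 30 min (-1.23 ± 0.25, adjusted p = 0.000679).

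Summed astrocyte markers were also lower in KO, at 185 to 327 CPM against 462 to 632 CPM in WT controls, with Slc1a2 and Aldoc called of 10 tested. Microglia and macrophage markers were higher, at 23.3 to 34.4 CPM against 11.6 to 16.9 CPM, with Cd68 and Csf1r called of 8. Of 7 mural markers tested Acta2 and Tagln were higher, but the mural sums overlapped, at 20.6 to 77.7 CPM in WT and 56 to 69.6 CPM in KO controls. Of 6 fibroblast and meningeal markers tested only Bgn was called, higher in KO. The sum of that list went the other way, from a mean of 36.6 CPM in WT to 21.2 CPM in KO controls, with overlap. Its main gene, Dcn, was at 31.4 and 11 CPM. The part of these cell types in the differences of Itgb8 and of the collagens was not tested.

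At 24 h of BDNF the genotype differences included Col1a2 and Col3a1, chains of connective tissue fibres, and Fn1. Col1a1, the other chain of collagen I, was not called. Col1a2 read 1.33, 0.918, 1.75 and 1.05 CPM in WT and 1.97, 4.75, 5.29 and 2.50 CPM in KO (1.52 ± 0.35, adjusted p = 0.00633), without overlap. Col3a1 was higher by 1.48 ± 0.48 (adjusted p = 0.0424) and Fn1 by 1.28 ± 0.35 (adjusted p = 0.018), both with overlapping groups. They lost the call in 6 and 5 of 8 fits without a library. Fn1 read 7.38, 8.44, 15.5 and 6.59 CPM in WT and 17.9, 35.5, 27.0 and 12.0 CPM in KO, where culture 4 was lowest in all 3 conditions. Fibroblast and meningeal marker sums overlapped here, at 12.1 to 19.5 CPM in WT and 10.1 to 27.7 CPM in KO.

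Itga6 (-1.12 ± 0.30, adjusted p = 0.0169) and Lama1 (-0.77 ± 0.24, adjusted p = 0.0355) were lower in KO at 24 h, again with overlap, since KO replicate 4 reached 82.5 CPM of Itga6 and 11.6 CPM of Lama1. Those calls were lost in 4 and 5 of 8 fits without a library.

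After 30 min of BDNF, Itga5 and Lama3, both also higher in KO controls, were again higher in KO. Itga5 read 1.11, 0.346, 1.04 and 0.777 CPM in WT and 3.45, 2.62, 1.34 and 4.70 CPM in KO, without overlap (1.91 ± 0.48, adjusted p = 0.00498). Lama3 read 2.32, 2.19, 2.49 and 2.10 CPM in WT and 4.33, 2.83, 10.3 and 5.15 CPM in KO (1.29 ± 0.31, adjusted p = 0.00334), where replicate 3, the library with the fewest reads, was highest. Lamb2, a laminin beta chain of synapses and vessels, was lower in KO (-1.18 ± 0.29, adjusted p = 0.00449), as was Col12a1, a collagen that decorates fibrils (-1.50 ± 0.46, adjusted p = 0.0174).

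Several of the 30 min calls were lost when KO culture 4 and KO 30 min replicate 3 were left out. That fit kept only replicates 1 and 2 of the KO 30 min group, and a smaller group can end a call by itself. Lama3 (0.66), Col12a1 (-0.81), Itgav (0.36), Col6a2 (0.47), Col4a2 (-0.17) and Col23a1 (-0.65, against -0.78 in the main fit) no longer passed in it. Itgb1 was higher by 0.58 ± 0.16 (adjusted p = 0.00965), and by 0.32 (adjusted p = 0.0638) without KO 30 min replicate 4, which read 206 CPM where the other 3 KO libraries read 109 to 129 CPM. Itgb3 (0.87 ± 0.32, adjusted p = 0.044), Fn1 (1.0 ± 0.35, adjusted p = 0.0355) and the leukocyte chain Itgb7 (2.03 ± 0.75, adjusted p = 0.0457) lost the call in 7, 6 and 6 of 8 fits without a library. Further calls rested on few reads: Col13a1 had 6 reads in the 4 KO libraries and 76 in WT, a CPM ratio of 0.101 (95% interval 0.0358 to 0.23, counting error only), and Col4a3 had 78 against 18, a ratio of 5.53 (3.28 to 9.81).

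**Figure D5:**
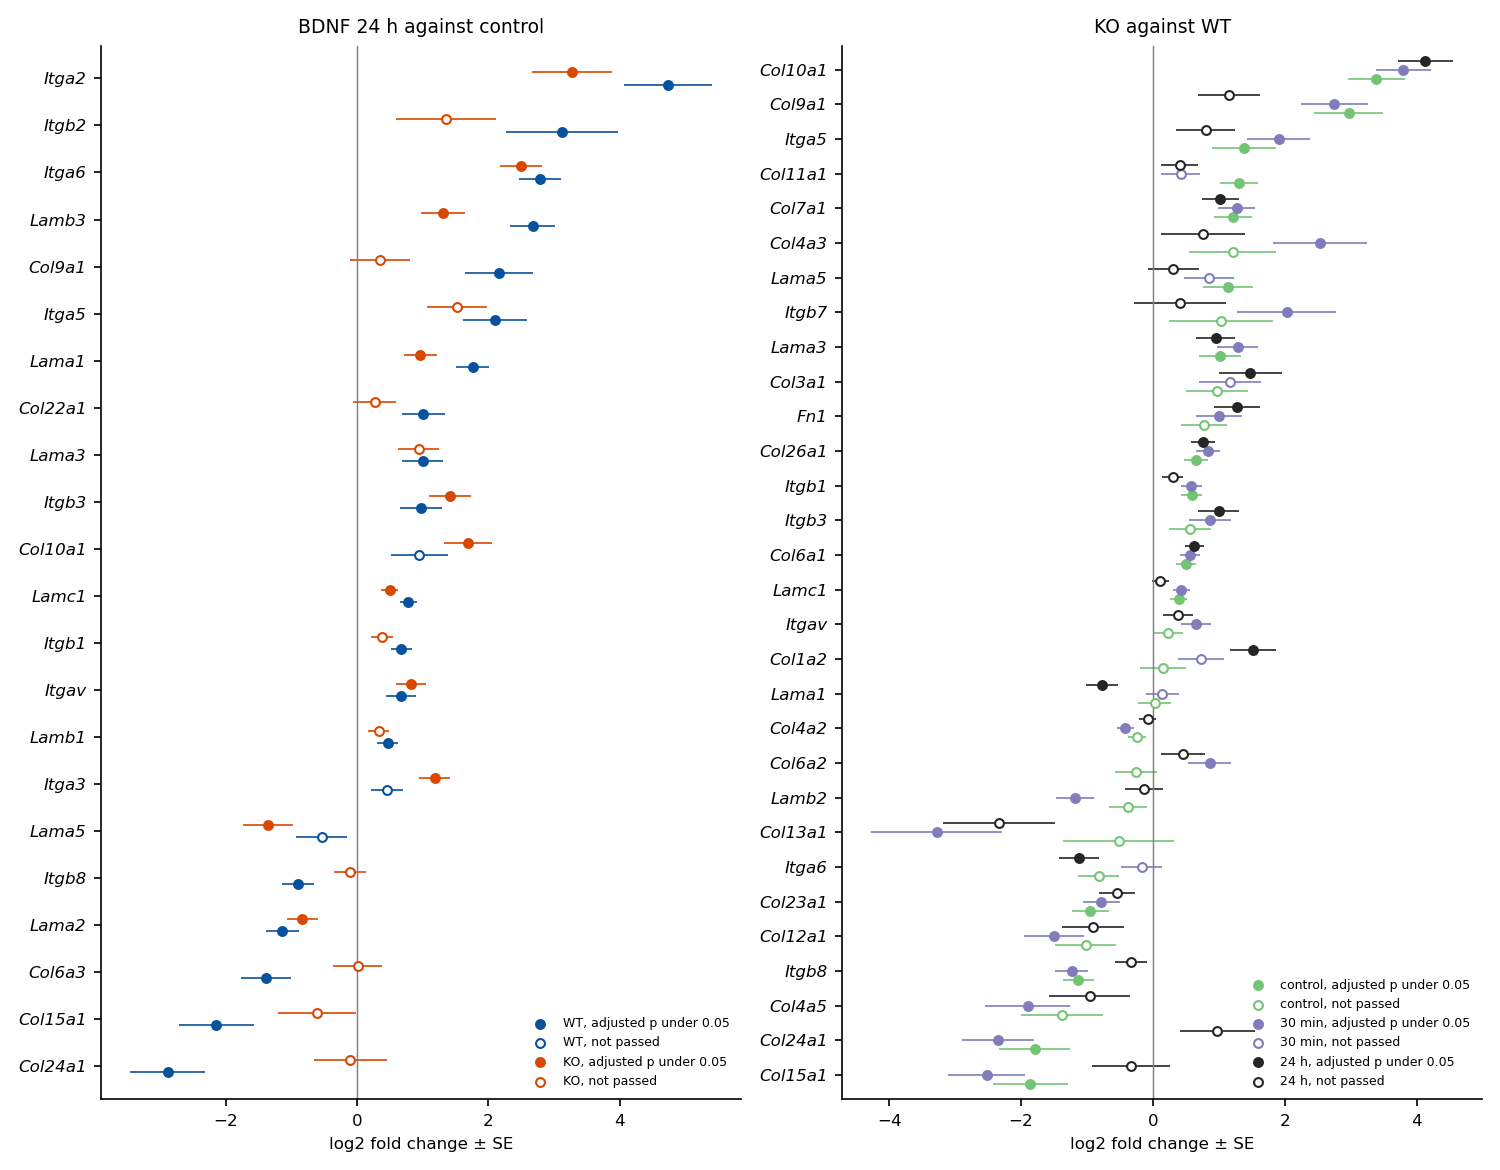
Log2 fold changes with their standard error for the members reported by name that were called in at least 1 comparison of each panel, 24 h of BDNF against control in each genotype (left) and KO against WT under each condition (right). Filled points have an adjusted p under 0.05 and open points do not. Itga2 rose by 4.73 in WT and 3.27 in KO, and Col10a1 was higher in KO by 3.39 to 4.13.

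Of 38 partners of the integrins, mostly inside the cell, 7 rose and 1 fell in WT at 24 h, where 18.7% of all genes were called. Their median change was 0.23. The list also holds membrane proteins, such as Cd9 and Cd151. Zyx, which marks mature focal adhesions, rose by 0.91 ± 0.18 (adjusted p = 0.000874), the actin regulator Vasp by 0.82 ± 0.15 (adjusted p = 0.000377), and the talin Tln2 fell by 0.56 on the log2 scale (adjusted p = 0.00367). In KO 5 rose and 0 fell, where 5.61% of all genes were called, with Vasp at 0.83 ± 0.15 (adjusted p = 0.00165) and the scaffold Nedd9 at 0.90 ± 0.19 (adjusted p = 0.00703). The largest of these rises was that of the membrane protein Cd9 (1.72 ± 0.46, adjusted p = 0.0304). Between untreated genotypes, where 21.4% of all genes were called, 4 were higher and 4 lower in KO, among them the focal adhesion kinase relative Ptk2b at -1.41 ± 0.20 (adjusted p = 3.63e-05). The membrane protein Cd151 was also among the lower genes (-0.62 ± 0.18, adjusted p = 0.0161).

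Of 39 other matrix and cell-surface proteins, 6 rose and 6 fell in WT at 24 h, where 18.7% of all genes were called. The rises included the cell-surface proteins Icam5 (0.80 ± 0.20, adjusted p = 0.00632) and Adam9 (0.37 ± 0.12, adjusted p = 0.0376). Tnc, the anti-adhesive tenascin C, rose by 2.83 ± 0.39 in WT (adjusted p = 2.17e-05) and by 2.28 ± 0.38 in KO (adjusted p = 0.00105), and Ecm1 by 2.30 ± 0.27 (adjusted p = 2.86e-06) and 1.23 ± 0.25 (adjusted p = 0.00527). These were the 2 of the list called in KO (5.61% of all genes). Elastin (Eln) fell in WT by 1.17 on the log2 scale (adjusted p = 0.000581). In KO controls 4 were higher and 6 lower than in WT (21.4% of all genes called), with Postn, periostin, at 1.82 ± 0.29 (adjusted p = 9.43e-05) and Eln at -1.56 ± 0.23 (adjusted p = 3.86e-05).

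Of 29 genes of collagen processing and sensing, 4 rose and 4 fell in WT at 24 h, where 18.7% of all genes were called. The collagen receptor kinase Ddr2 rose by 1.77 ± 0.19 (adjusted p = 1.04e-06) and its relative Ddr1 fell by 0.52 on the log2 scale (adjusted p = 0.0181). The procollagen protease Adamts2 fell in WT (-1.90 ± 0.43, adjusted p = 0.00278) and in KO (-1.87 ± 0.49, adjusted p = 0.0249), where 1 rose and 1 fell in all (5.61% of all genes called). In KO controls 7 were higher and 5 lower than in WT (21.4% of all genes called). Pcolce, which enhances procollagen cleavage, was higher by 2.65 ± 0.55 (adjusted p = 0.00122), the lysyl hydroxylase Plod1 by 0.95 ± 0.20 (adjusted p = 0.00176), and Adamts2 was lower (-2.36 ± 0.44, adjusted p = 0.000504).

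Over all 9 comparisons, 39 members were called at least once and 37 were tested and called in none. Single comparisons called 0.0358% to 28.4% of all genes, and the share of all genes called at least once was not counted. Members called in none included Col4a1, Col1a1 and Col5a1, the low Itgb4 and Lamc3, and Col25a1. Col25a1 is a transmembrane collagen of neurons, and it stood apart in 1 WT culture. Col25a1 read 14.8, 12.9, 12.2 and 42.8 CPM in WT controls and 15.5, 12.2, 12.6 and 42.4 CPM at 30 min. With the culture as a block, Col25a1 fell at 24 h in KO (-0.63, adjusted p = 0.00998). Every called member kept its direction within set 1 and within set 2, where set 1 holds 1 KO library a group. The calls were made on both sets together, so this agreement is not an independent check. Set 2 alone called 2, 1, 2, 3 and 0 members in the order WT 24 h, KO 24 h and KO against WT in controls, at 30 min and at 24 h, with 2 or 3 libraries a group. Over all genes it called 237, 19, 599, 957 and 11.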

How the data were processed

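RNA-seq of polyA RNA from 24 libraries (TruSeq Stranded mRNA, per the labels' protocols) was deposited as raw counts per gene. Per the submitters' processing notes, the build was mm10 and the tools were edgeR 3.40.2, limma 3.54.2, STAR 2.7.9a and DESeq2 1.38.3. Neither the counting program nor its strand setting is stated in the labels, so reads of overlapping genes may be shared. Among called members exon overlap with another gene covered at most 5.9% of exon length, in Itgav. Gene IDs were matched to GENCODE M21, which named 45229 of 45792 genes (98.77%), and the others held 0.0662% of counts. Library totals ran from 19780486 to 62135270, which sets the counting error of each value.

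Differences in these counts were fitted in edgeR 4.0.16 (R 4.3.3): filterByExpr (min count 10, min total 15), TMM factors (0.824 to 1.07), 1 mean per group over 6 groups and 18 residual degrees of freedom, quasi-likelihood tests and Benjamini-Hochberg adjustment over 16777 genes. The standard error is the fold change over the square root of F. The test was tried on simulated counts with known changes. No pair of libraries was identical. Libraries of a genotype share culture codes across treatments, and deviations from group means correlated within a code (0.0464 to 0.462, above 0.1 in 22 of 24 pairs). The codes come from the library names, so the culture block was an alternative within a genotype. Between genotypes only the replicate number is shared.

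The members and the other gene lists were chosen with earlier results of these data known. Named were the called members with a mean of at least 0.1 CPM, up to 14 rises and 10 falls a comparison, the highest members of each class per kb, Itga2 and Col24a1, and up to 6 genes of each other list. Itgb4, Itgal, Lamc3, Col1a1, Col5a1, Col25a1, Icam5, Adam9 and Cd151 were named after their values were seen. One member is counted but not reported here by name. Alternatives were DESeq2 1.42.0 and its size factors in edgeR, no filter, only the compared groups, KO culture 4 and KO 30 min replicate 3 left out, set 2 alone, set as a term, the blocks, and each library left out.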

Additional observations from a re-analysis of the deposited data

Results flagged for a closer look

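Of 246 groups of 4 libraries (41 members in 6 groups), 18 (7.32%) held a library separated from the others by more than Dixon's 95% critical share of the group's range, where chance gives about 1 in 20. KO culture 4 supplied several. In KO 24 h replicate 4, Itga6 was at 82.5 CPM (others 30.2 to 35.0), Col10a1 at 5.25 CPM (others 18.4 to 21.1) and Col13a1 at 0.274 CPM (others 0 to 0.0403). In KO 30 min replicate 4, Col22a1 was at 8.85 CPM (others 2.21 to 3.27), Col7a1 at 8.40 CPM (4.12 to 4.69), Itgav at 19.8 CPM (10.8 to 12.2) and Lama1 at 4.88 CPM (4.02 to 4.13).

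Other KO 30 min libraries that stood apart were replicate 1 for Col11a1, at 1.49 CPM (others 0.927 to 1.02), and replicate 2 for Col13a1, at 0.102 CPM where the others were at 0. In WT controls, Itga3 was at 42.0 CPM in replicate 3, Lama3 at 2.04 CPM in replicate 2, Lama5 at 3.13 CPM in replicate 4, each the highest, and Itgb3 was lowest at 1.69 CPM in replicate 4. In WT 24 h libraries the highest were Itgb1 at 140 CPM and Col6a2 at 1.43 CPM in replicate 3, Lamb1 at 32 CPM in replicate 1 and Col4a5 at 1.76 CPM in replicate 4. Col4a5 was also highest in WT 30 min replicate 4, at 1.64 CPM.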

How the results depend on the processing

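No named fold change reversed: of 1341 recomputed values, 1033 kept their side of the threshold and 308 lost it. Counts of called members moved by over 1.5 times under these settings. Set 2 alone gave 2 (WT 24 h), 1 (KO 24 h), 2, 3 and 0 (KO against WT in controls, at 30 min and at 24 h), with fewer libraries. Over all genes set 2 alone called 237, 19, 599, 957 and 11 in that order, where the main fit called 3133, 942, 3592, 4760 and 2223. Only the compared groups gave 5 for KO 24 h and 14 for KO against WT at 30 min, and 552 and 2688 over all genes. When KO culture 4 and KO 30 min replicate 3 were left out, KO against WT gave 28 in controls and 23 at 24 h, and the 24 h interaction gave 2. Calls over all genes also went up, to 5326, 5435 and 111, from 3592, 2223 and 6 in the main fit. DESeq2 gave 1 for the 24 h interaction and the culture replicate block gave 3, where edgeR alone gave 0. Over all genes DESeq2 called 56 and the block 299. The cause was not tested.

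Leaving out each library gave 15 to 20 (WT 24 h), 6 to 10 (KO 24 h), 9 to 17, 17 to 23 and 4 to 14 (KO against WT in controls, at 30 min and at 24 h), and 0 for both 30 min responses and both interactions. The KO 24 h count moved most without KO control replicate 2 (6), KO control replicate 4 (7) and KO 24 h replicate 1 (7). KO against WT moved most in controls without WT control replicate 1 (9) and KO control replicate 1 (10), and at 24 h without WT 24 h replicates 1 (6), 2 (6) and 4 (7) and KO 24 h replicates 1 (6), 2 (4) and 3 (5). Calls held in every such fit for 14 of 20, 5 of 12, 6 of 16, 13 of 25 and 4 of 11 members in that order. The replicate block gave 25, 17, 17, 26 and 12 in the same order, and 5298, 2834, 4227, 5442 and 2916 over all genes. It ended the calls of Itga5 (KO against WT, controls) and Itgb7 (KO against WT, 30 min) and no others. Depth limits Itga2, Itgb2, Itgb7, Col4a3 and Col13a1. Few reads were held by WT controls for Itga2 and Itgb2, by WT 30 min libraries for Itgb7 and Col4a3, and by KO libraries for Col13a1.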
